A study of Mus musculus with 7 samples.

Results

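The proteasome subunit transcripts described here are the 31 genes whose symbols were listed as members, taken as rows of the deposited count table out of 26586 gene symbols. They were split by symbol into 14 genes of the core particle (7 Psma and 7 Psmb) and 17 genes of the regulatory particle (6 Psmc and 11 Psmd). All 31 were in the table. The samples were 7 single mouse embryos (morulae, C57BL/6 background) taken 3 days post coitum, each the offspring of heterozygous L13a+/- parents. L13a, now named Rpl13a, is a large-subunit ribosomal protein gene, and the labels do not describe the mutant allele. The embryos were untreated, developed in vivo and were flushed from the oviduct and uterus. They form 1 group, numbered here as replicates 1 to 7. The labels give no embryo's own genotype, litter, sex or batch, so there was no comparison between groups. Polyadenylated RNA was amplified with SMART-Seq v4, which carries no molecular identifiers, and each embryo is 1 bulk sample. Fewer cells and less RNA per cell therefore cannot be told apart.

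The proteasome degrades proteins that carry ubiquitin chains. Its core particle is a barrel of alpha rings (Psma), which gate entry, and beta rings (Psmb), which hold the proteolytic sites. The regulatory particle caps the barrel: its ATPase ring (Psmc) unfolds and threads substrates, and its non-ATPase subunits (Psmd) bind ubiquitin, remove it and hold the cap together. In oocytes and early embryos the pathway is known for clearing maternal proteins.

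Libraries differed widely in depth and in content. Total counts ran from 139619 in replicate 6 to 33123742 in replicate 4, and thinning every library to 139619 counts left from 1749 to 8533 genes with a count. Replicates 3 and 6 had the lowest totals, 725729 and 139619. Of 10 morula markers, all 10 were counted in replicate 4, 7 in replicate 2, 4 in replicate 7, 3 in replicate 3, 2 in replicate 5 and 0 in replicates 1 and 6. Pou5f1, which defines the pluripotent state, had counts in replicates 2, 4 and 7 only. Replicates 1 and 6 thus held none of the defining markers of their labelled stage. The 10 oocyte markers summed to 7487, 7761, 9827, 13.5, 590, 3717 and 14767 CPM (a gene's counts scaled to a common library total) in replicates 1 to 7. The 10 oviduct and uterus markers summed to 1153, 1811, 0, 58.6, 1.81, 6289 and 216 CPM. The 9 blood and stroma markers in the table summed to 4476 CPM in replicate 6, against no more than 112 CPM elsewhere. In replicate 6, 3 of the 9 were counted, and Dcn alone held 4240 CPM of that sum.

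Transcripts of the proteasome were most abundant in replicate 4 and least abundant in replicate 3. Together the 31 genes made up 2087 CPM in replicate 1 (95% Poisson interval 2004 to 2172), 4146 (4115 to 4177) in replicate 2, 409 (364 to 459) in replicate 3, 22742 (22690 to 22793) in replicate 4, 6188 (6096 to 6282) in replicate 5, 1261 (1081 to 1461) in replicate 6 and 1553 (1534 to 1572) in replicate 7. None of these 7 intervals overlapped another. They cover counting error only, because without molecular identifiers PCR duplicates were counted as reads. The mean was 5484 ± 7860 CPM (SD, n = 7), and the highest embryo was 55.6-fold above the lowest. As shares of all counts, these 2 embryos stood at 2.27% and 0.0409%. Without replicate 4 the mean fell to 2607 CPM. Replicate 4 was also the embryo with all morula markers and the lowest oocyte marker sum; the part of either in the proteasome values was not tested.

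**Figure D1:**
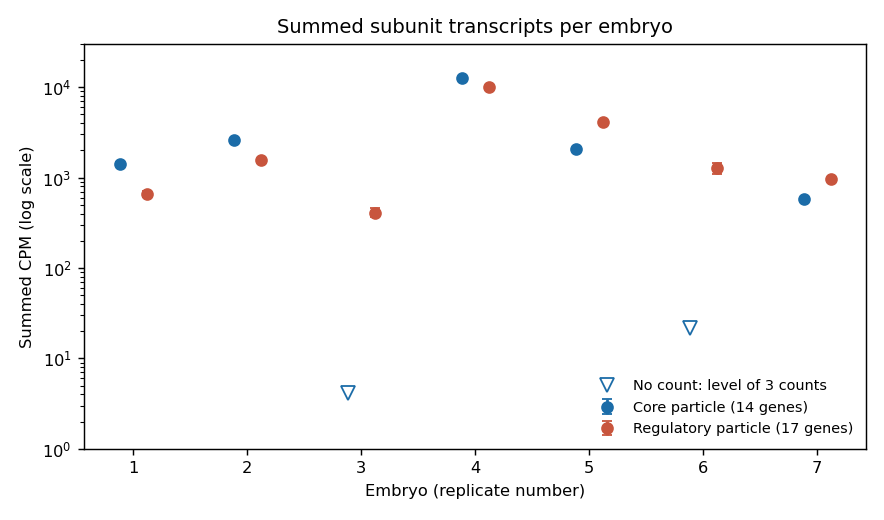
Summed CPM (log axis) of the 14 core genes (blue) and 17 regulatory genes (red) in each of the 7 embryos; bars are 95% Poisson intervals and are often smaller than the symbol, and open triangles mark the level of 3 counts where the core genes had none. Replicate 4 is the highest in both particles, and only regulatory genes were counted in replicates 3 and 6.

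No core particle transcript was counted in 2 embryos, replicates 3 and 6, in which some regulatory transcripts were counted. These are also the 2 libraries with the fewest counts. Core genes summed to 1428, 2578, 0, 12696, 2060, 0 and 584 CPM in replicates 1 to 7. Regulatory genes summed to 659, 1568, 409, 10046, 4128, 1261 and 969.5 CPM. In replicate 3 the regulatory genes had 297 counts and the core genes 0. The regulatory sum was 99.0-fold above a limit of 4.13 CPM (3 counts) set for the core. In replicate 6 the regulatory genes had 176 counts against 0, and their sum was 58.7-fold above a limit of 21.5 CPM. The upper 95% Poisson bounds of the core sums were higher than these limits, at 5.08 and 26.4 CPM, so the folds are not strict minima. These values rest on few genes: the 3 most counted members held 99.7% of the proteasome counts in replicate 3 and 94.3% in replicate 6, against 17.4% in replicate 4. In the other embryos the regulatory particle held 31.6% (95% Clopper-Pearson interval 29.7 to 33.5) of the proteasome counts in replicate 1, 37.8% (37.5 to 38.2) in replicate 2, 44.2% (44.1 to 44.3) in replicate 4, 66.7% (66.0 to 67.4) in replicate 5 and 62.4% (61.8 to 63.0) in replicate 7. The regulatory share was thus lower in replicates 1, 2 and 4 than in replicates 5 and 7. It rested on few genes in replicates 1, 5 and 7, where the 3 most counted members held 72.8, 64.5 and 50.4% of the proteasome counts. In replicate 1, Psmb1 and Psmb3 held 664 and 641 of the 1633 core counts. In replicate 5, Psmd6 and Psmd4 held 4822 and 4573 of the 11411 regulatory counts. In replicate 7, Psmd3 and Psmd4 held 5886 and 3728 of 16600. The median gene went the other way: core and regulatory medians were 40.7 and 6.15 CPM in replicate 5, and 24.5 and 9.70 CPM in replicate 7. Over replicates 1, 2, 4, 5 and 7 the log2 ratio of regulatory to core counts averaged -0.09 ± 0.92 (SD, n = 5). It was -0.67 when counts were first divided by exon length, so the mean lay within the spread between embryos.

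All 31 subunits were counted in 2 embryos, and no more than 4 were counted in each of 2 others. Of the 31 members, 17, 31, 4, 31, 23, 4 and 24 were counted in replicates 1 to 7. Of the 11810 genes tested (mean CPM at least 1, a level that all 31 members reached), 41.7, 72.1, 29.0, 84.0, 27.7, 14.8 and 69.5% were counted in the same embryos. The median of mean CPM was 155 for the members and 20.6 for those genes, so the members were also set beside the 623 genes whose CPM in replicate 4 was at least that of the lowest member there (305 CPM). Of these 623 genes, 65.2, 96.6, 47.8, 78.3, 27.3 and 89.9% were counted in replicates 1, 2, 3, 5, 6 and 7. In those 6 embryos 8, 14, 0, 12, 0 and 11 of the 14 core genes were counted, and 9, 17, 4, 11, 4 and 13 of the 17 regulatory genes. The core genes thus stood at 0 of 14 in replicate 3, where 47.8% of the abundant genes were counted, and in replicate 6, where 27.3% were. After thinning to 139619 counts, 12, 28, 3, 31, 19, 4 and 17 members kept a count. Replicate 5, with 3388 genes counted, had more members counted than replicate 1 with 5121.

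**Figure D2:**
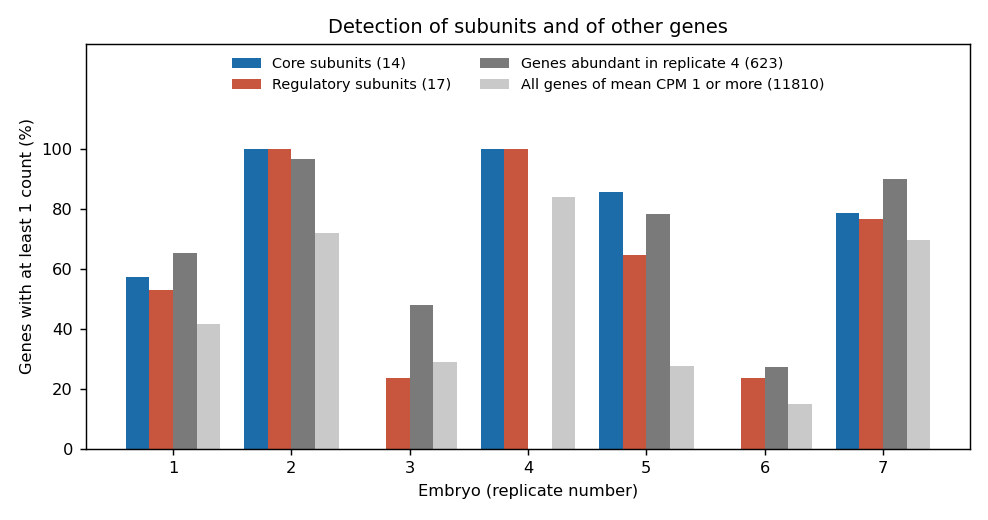
Percentage of genes with at least 1 count in each embryo, for the 14 core genes, the 17 regulatory genes, the 623 genes at or above the lowest member's CPM in replicate 4 (no bar in replicate 4, which chose them) and all 11810 genes of mean CPM 1 or more. Core genes have no bar in replicates 3 and 6 because none was counted there.

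The subunits varied widely between embryos. A test of each gene's spread against genes of like abundance called 0 of all 11810 genes, so it cannot set the members apart from other genes. In edgeR's quasi-likelihood dispersion test over 11810 genes (one-sided), 0 of 31 members passed an adjusted p of 0.05 (background 0%; lowest adjusted p of a member 0.869), and 0 of 31 had an unadjusted p under 0.05 (background 0.576%, 68 genes). DESeq2 marked 0 of all 11810 genes as dispersion outliers, members included, and limma on the authors' log2 table called 0 of the 11810. Neither can therefore set the members apart. Without replicate 5, 5 of 31 members had an unadjusted p under 0.05 in edgeR's test (Psma6, Psma7, Psmb4, Psmb5 and Psmc4; background 0.966%, 115 of 11905 genes), and 0 passed after adjustment (lowest adjusted p 0.885). The common dispersion over all genes was 9.02. These p-values measure only how far a gene's spread over the 7 samples exceeded that of genes of like abundance. Separate litters are not stated, and part of the spread may be technical. The median SD of log2 CPM (TMM scaling, prior count 2) was 4.86 over the 31 members, beside 3.63 over the 11810 genes. It was 5.16 over the core genes and 4.59 over the regulatory genes. These SDs were not matched for abundance, and the median of mean CPM was 155 for the members and 20.6 for the 11810 genes. Members ranged from an SD of 3.67 for Psmc3 to 6.33 for Psma6.

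Most subunits peaked in the same embryo. Of the 31 members, 29 had their highest CPM in replicate 4, beside 29.6% of the 11810 genes. The exceptions, Psmd4 and Psmd6, peaked in replicate 5. The 11810 genes were not matched to the members for abundance (median of mean CPM 20.6 against 155). Over the 29 members highest in replicate 4, that embryo exceeded the next by 1.18-fold (Psmd8) to 82.1-fold (Psmc5), with a median of 3.76-fold. With replicate 4 left out, replicate 2 was the highest embryo for 13 members. One member, Psmd3, was counted in all 7 embryos, beside 3.69% of the 11810 genes, 5 members were counted in 6, and 2 in no more than 2.

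**Figure D3:**
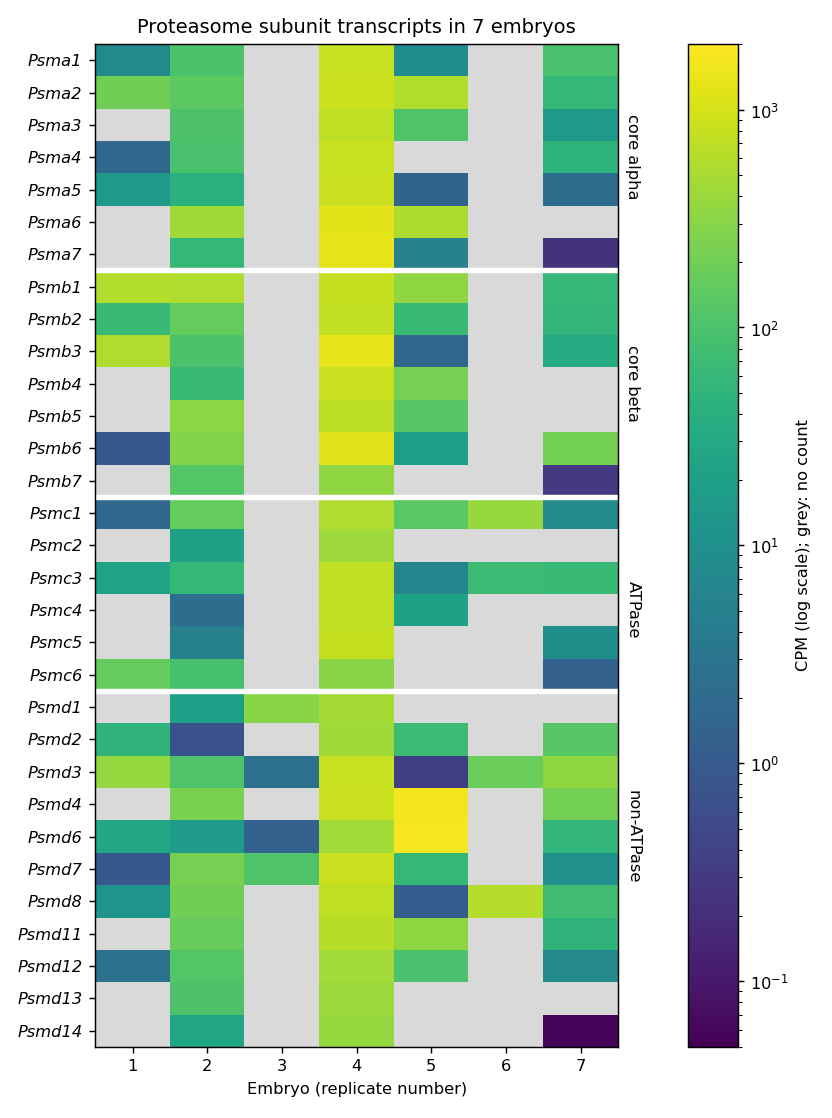
CPM (log colour scale, grey for no count) of the 31 subunit genes in the 7 embryos, ordered by particle and ring. All 31 genes reach 305 CPM or more in replicate 4, replicates 3 and 6 are grey for all 14 core genes, and Psmd4 and Psmd6 are brightest in replicate 5.

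The catalytic beta subunits were counted together in 2 embryos. Psmb5 carries the chymotrypsin-like site, and its CPM was 0, 329, 0, 695, 127, 0 and 0 in replicates 1 to 7. Psmb6, which carries the caspase-like site, was at 0.874, 265, 0, 1230.5, 19.2, 0 and 221 CPM. Psmb7, which carries the trypsin-like site, was at 0, 121, 0, 338, 0, 0 and 0.292 CPM. All 3 were thus high in replicates 2 and 4 and uncounted in replicates 3 and 6, while replicate 7 held Psmb6 with 3790 counts, Psmb7 with 5 and Psmb5 with 0. Per exon length, Psmb5 and Psmb6 were at 2245 and 1910 TPM (counts scaled by exon length and then to a common total) in replicate 4, 1304 and 505 TPM in replicate 2, and 453 and 32.8 TPM in replicate 5.

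The DNA before the start sites of Psmb5 and Psmb6 is shown because both hold the core of the antioxidant response element, TGACNNNGC, which the proteasome regulator Nfe2l1 is known to bind. Stretches of Psmd2, Psmd4 and Psmd11 are shown because they hold CCGGAAG, an ETS-type motif present in a larger share of the members' promoters than of the background given after the sequences. Positions count back from the RefSeq start site of GRCm38.p6, each sequence is read on the gene's strand, and capitals mark matches to the searched motifs on either strand. Psmb5 is shown at chr14:54618023-54618075 (minus strand, -80 to -28), Psmb6 at chr11:70525277-70525356 (plus strand, -80 to -1), Psmd2 at chr16:20651572-20651651 (plus strand, -80 to -1), Psmd4 at chr3:95042675-95042754 (minus strand, -140 to -61) and Psmd11 at chr11:80428535-80428614 (plus strand, -80 to -1). The Psmb5 stretch ends at -28 because GENCODE M21 places the start of that gene 27 bases farther upstream than RefSeq does.
Psmb5: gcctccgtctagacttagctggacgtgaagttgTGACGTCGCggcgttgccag
Psmb6: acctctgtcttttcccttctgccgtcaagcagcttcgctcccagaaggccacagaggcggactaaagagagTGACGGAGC
Psmd2: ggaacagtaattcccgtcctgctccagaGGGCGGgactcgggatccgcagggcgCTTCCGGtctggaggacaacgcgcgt
Psmd4: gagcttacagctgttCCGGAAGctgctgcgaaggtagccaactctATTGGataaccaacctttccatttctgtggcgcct
Psmd11: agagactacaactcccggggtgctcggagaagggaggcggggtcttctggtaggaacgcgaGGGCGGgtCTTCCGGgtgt

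Promoters were found in that table for 25 of the 31 members, as 27 entries. In the 250 bases before the start, TGACNNNGC on either strand was in 4 of the 27 (Psmb5, Psmb6, Psmc6 and Psmd12; 14.8%), beside 10.2% of all 32851 promoters and 11.7% of the 10545 promoters of the tested genes. CCAAT, the box bound by NF-Y, was in 10 (37.0%), beside 33.8% and 36.0%. GGGCGG, the core of a GC box, was in 14 (51.9%), beside 32.7% and 56.9%. CACGTG, an E-box, was in 1 (3.70%), beside 6.02% and 8.39%. CCGGAAG was in 10 (37.0%), beside 6.91% and 13.4%. AAGATGGC was in 0, beside 1.56% and 1.92%, and the nuclear respiratory factor palindrome in 1 (3.70%), beside 0.782% and 1.71%. These shares are descriptions without a test. For some members, among them Psmc1, Psmd6 and Psmd12, GENCODE starts the gene upstream of the RefSeq start, so part of the searched bases lies in its annotated exons. In Psma6 and Psmc2 a CCAAT and a CCGGAAG match share 1 base. Of the genes shown with TGACNNNGC, Psmb6 was counted in replicates 1 and 7 and Psmb5 in neither.

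The other core subunits were counted in 3 to 5 embryos each, and none of them in replicates 3 and 6. Psmb1, among the 3 members of highest mean CPM, was at 580.5, 563, 0, 787, 346, 0 and 58.4 CPM in replicates 1 to 7, and was the most counted member in replicates 1 and 2. Replicates 1, 2 and 4 thus lay close together for this gene, and replicate 7 lay far below them. Psmb3, a structural beta subunit, was at 560, 97.7, 0, 1334, 1.81, 0 and 34.4 CPM. Psmb2 and Psmb4, also without a proteolytic site, were counted in 5 and 3 embryos, Psmb2 between 52.4 and 742 CPM where counted and Psmb4 between 64.6 and 856 CPM.

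In the alpha ring, Psma6 had the largest spread of all members, with 0, 434, 0, 1276, 552, 0 and 0 CPM and an SD of 6.33. It was either at 434 CPM or more, or uncounted. Psma2 was counted in 5 embryos, between 57.5 CPM in replicate 7 and 885 CPM in replicate 4, with 595 CPM in replicate 5. Psma7 took the largest share of the proteasome counts in replicate 4 (1341 CPM, 5.89%) and had 4 counts (0.234 CPM) in replicate 7. Psma1, Psma3, Psma4 and Psma5 lay between 722 and 842 CPM in replicate 4 and at 106 CPM or less in replicate 2.

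Of the 6 ATPase genes, all 6 were counted in replicates 2 and 4 and 2 in replicate 6. They summed to 187, 343, 0, 3530, 159, 466 and 80.8 CPM in replicates 1 to 7. Psmc3, the member of smallest spread (SD 3.67), was at 22.7, 58.4, 0, 718, 6.15, 71.6 and 62.0 CPM. Psmc1 was at 1.75, 165, 0, 559, 131, 394 and 7.65 CPM, so its second highest level was in replicate 6, with 55 counts. Psmc2, one of the lowest members, was at 0, 21.6, 0, 425, 0, 0 and 0 CPM. Psmc4 and Psmc5 were at 727 and 796 CPM in replicate 4 and at most 21.3 and 9.70 CPM elsewhere. Psmc6 was highest in replicate 4 (305 CPM), followed by replicate 1 (163 CPM).

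The 2 members that did not peak in replicate 4 were non-ATPase subunits. Psmd4, a ubiquitin receptor of the cap and the member of highest mean CPM, was at 0, 240, 0, 864, 1654, 0 and 218 CPM, with an SD of 6.17. Psmd4 lies on chromosome 3 of GRCm38 from 95032694 to 95042614 and Psmd6, a lid subunit, on chromosome 14 from 14112174 to 14120984, both on the minus strand (GENCODE M21). Psmd6 was at 28.0, 17.8, 1.38, 465, 1744, 0 and 53.3 CPM. In replicate 5 these 2 genes exceeded their own level in replicate 4 by 1.92-fold and 3.75-fold, and Psmd6 alone held 28.2% of the proteasome counts. With DESeq2 size factors 28 rather than 29 members peaked in replicate 4.

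Psmd3, a lid scaffold subunit, had 433, 1763, 2, 26865, 1, 26 and 5886 counts, or 379, 107, 2.76, 811, 0.362, 186 and 344 CPM (SD of log2 CPM 4.0). In GRCm38 it lies on chromosome 11 from 98682554 to 98695979, on the plus strand (GENCODE M21). Its level was lowest in replicate 5, where Psmd4 and Psmd6 were highest. Psmd14, the deubiquitinase that removes chains from substrates, was at 0, 26.5, 0, 370, 0, 0 and 0.0584 CPM, the last from 1 count. Psmd7, which pairs with Psmd14, was counted in 6 embryos, at 0.874, 227, 106, 854, 57.5, 0 and 10.1 CPM. In replicates 3 and 5 Psmd7 thus had 77 and 159 counts where Psmd14 had 0.

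The few proteasome counts of replicates 3 and 6 came from different regulatory genes. Replicate 3 had 217 counts of Psmd1, the large scaffold of the base, 77 of Psmd7, 2 of Psmd3 and 1 of Psmd6. Psmd1 was at 0, 20.1, 299, 478, 0, 0 and 0 CPM. Replicate 6 had 85 counts of Psmd8 (609 CPM, beside 720 CPM in replicate 4), 55 of Psmc1, 26 of Psmd3 and 10 of Psmc3. Psmd3 was thus the 1 gene counted in both. Psmd13 was counted in replicates 2 and 4 only, at 102 and 401 CPM. Psmd2, the other large scaffold, was at 49.8, 0.729, 0, 447, 71.6, 0 and 130 CPM, Psmd11 was counted in 4 embryos and Psmd12 in 5.

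Subunits of 1 complex also differed in level within an embryo. In replicate 4, where all 31 had at least 10109 counts, levels per exon length ran from 191 TPM for Psmd1 to 3004 TPM for Psma6, a 15.7-fold range, with an SD of log2 TPM of 1.07 over the members. The median was 1272 TPM for the core and 483 TPM for the regulatory genes. With the median length of protein-coding transcripts in place of all annotated exons, the medians were 1108 and 613 TPM, and Psmc6 (178 TPM) and Psmb3 (2264 TPM) were the lowest and highest. The order of single genes therefore depends on the length used, and the core median stayed the higher one. In replicate 2, which also had all 31 counted, the SD of log2 TPM was 2.34. The range in replicate 2 was 2023-fold, from 0.644 TPM for Psmd2 (only 12 counts) to 1304 TPM for Psmb5. With the median transcript length it was 429-fold there, from 1.77 TPM for Psmd2 to 760 TPM for Psma6, and 12.7-fold in replicate 4. Across the 31 genes, which share a library and are not replicates, Spearman's rho of TPM with replicate 4 was 0.549 for replicate 2, 0.368 for replicate 5, 0.101 for replicate 7 and 0.008 for replicate 1.

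**Figure D4:**
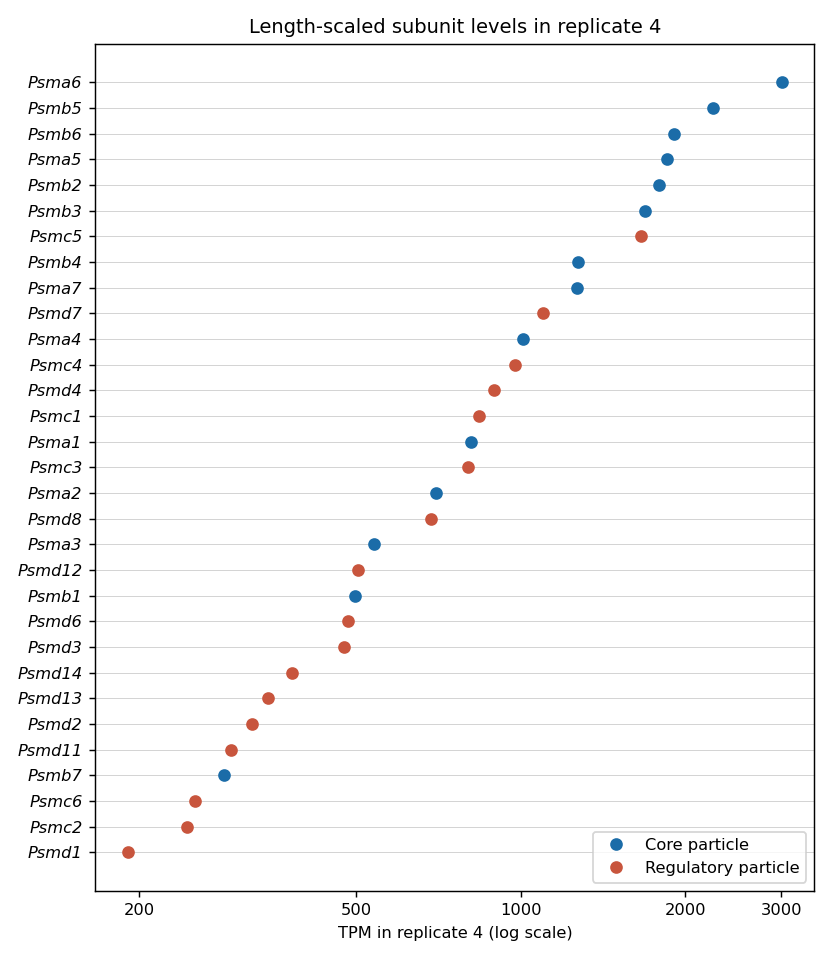
TPM (log axis, from counts per length of all annotated exons) of the 31 subunits in replicate 4, sorted, with core genes in blue and regulatory genes in red. Levels run from 191 TPM for Psmd1 to 3004 TPM for Psma6, and core genes take 6 of the 7 highest places.

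Alternative core subunits were scarce. The immunoproteasome subunits Psmb8, Psmb9 and Psmb10, which replace the catalytic ones after interferon, summed to 926 counts in replicate 2, 319 in replicate 4 and 0 in the other 5 embryos. Set against Psmb5, Psmb6 and Psmb7, they held 7.30% (95% Clopper-Pearson interval 6.86 to 7.77) of the joint counts in replicate 2 and 0.424% (0.379 to 0.473) in replicate 4. In replicates 5 and 7 the upper bounds were 0.907 and 0.0972%, and replicates 1, 3 and 6 had too few counts of either kind to give a share. Psmb10 made up most of both sums, with 865 and 272 counts. Of the germ-line and thymus subunits, Psma8 had 1 count in all, in replicate 4, and Psmb11 had 17 counts in replicate 4 and 33 in replicate 5. Replicate 2 also had 1811 CPM of oviduct and uterus markers, against 58.6 CPM in replicate 4; their part in the immunoproteasome counts was not tested.

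Activators that bind the core in place of the regulatory particle, and an inhibitor of the core, formed a list of 5 genes, of which 3 were counted in replicate 3 and 1 in replicate 6. Of the 5, 1 (Psme1) was highest in replicate 4, and 0 passed the edgeR dispersion test, which called 0 of all 11810 genes. Psme4, an activator known for histone degradation, was at 379, 378, 369, 86.4, 0, 1382 and 488 CPM in replicates 1 to 7. Psme3, the nuclear activator, was at 1506, 238, 16.5, 161, 0, 0 and 1061 CPM. Psmf1, the inhibitor, was at 76.9, 2.13, 256, 38.7, 0, 0 and 225 CPM. In replicate 3, which had 0 counts of all 14 core genes, Psme4 and Psmf1 thus had 268 and 186 counts. Replicate 5, in which 23 subunits were counted, had 0 counts of all 5 genes. The 6 embryos other than replicate 4 held 590 CPM or more of oocyte markers, against 13.5 CPM there. In replicate 5, Omt2b alone held 577 of the 590 CPM, and 3 of the 10 markers were counted, against 7 in replicate 4. The relation of the oocyte markers to these 5 genes was not tested.

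**Figure D5:**
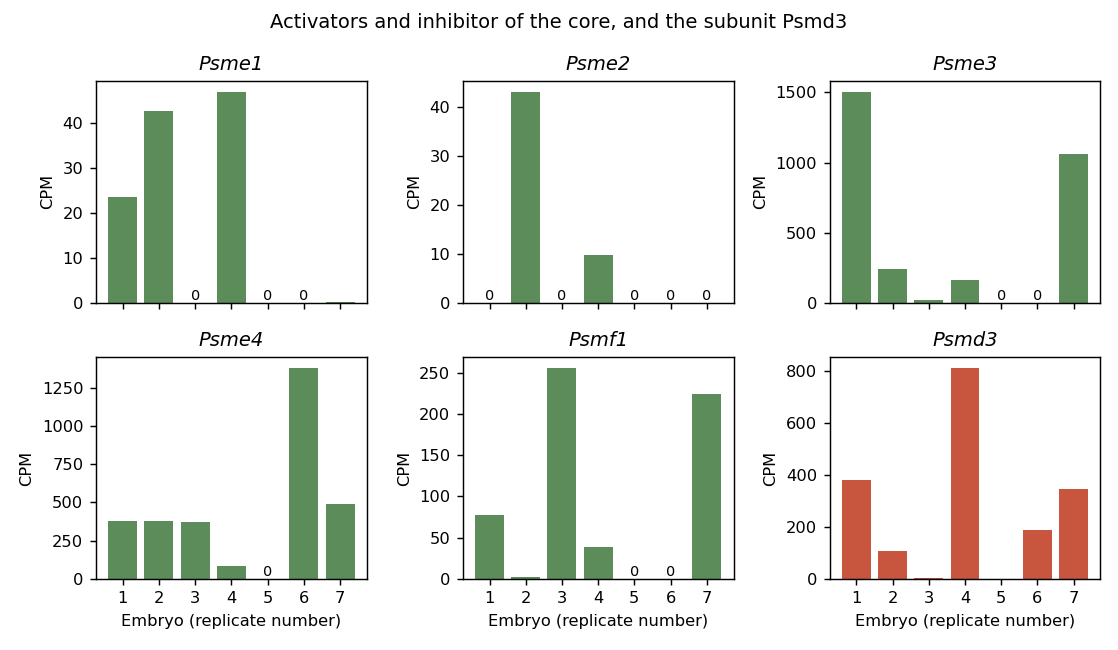
CPM in each of the 7 embryos of the activators Psme1 to Psme4 and the inhibitor Psmf1 (green), with the subunit Psmd3 (red) for comparison; each panel has its own linear axis from 0, and 0 marks an embryo with no count. Psme4 is lowest among counted embryos in replicate 4, where Psmd3 is highest.

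Replicate 4 was the only embryo in which all 5 core assembly chaperones were counted. Of the 5 core chaperones, Psmg1, Psmg2, Psmg3, Psmg4 and the maturation factor Pomp, 4 were highest in replicate 4, and all were at 0 in replicates 3 and 6. The 5 together summed to 867 CPM in replicate 4. Pomp was at 4.37, 67.7, 0, 436, 2.17, 0 and 51.5 CPM, while Psmg3 had 3598 counts in replicate 2, 3901 in replicate 4 and 0 in the others. Psmg1 was counted in replicates 4 (128 CPM) and 7 (98.2 CPM) only. The regulatory chaperone Psmd5 went another way, at 667, 8.75, 480, 111, 0, 0 and 2.57 CPM, while Psmd9 and Psmd10 were highest in replicate 4. The fourth listed chaperone, Paaf1, was not analysed here.

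Receptors, deubiquitinases and ubiquitin genes varied one by one. Of 7 associated factors, 3 were highest in replicate 4. The ubiquitin receptor Adrm1 was at 0, 311, 470, 881, 0, 0 and 186 CPM, the deubiquitinase Usp14 at 766, 0, 0, 315, 18.1, 0 and 29.5 CPM, and Shfm1, the small lid protein Sem1, at 113, 62.6, 0, 332, 732, 0 and 26.0 CPM. Shfm1 thus peaked in replicate 5, as Psmd4 and Psmd6 did. The ubiquitin fusion gene Rps27a was also highest there, at 1088 CPM, while the polyubiquitin gene Ubb reached 773 CPM in replicate 4 and was uncounted in replicates 3, 5 and 6. Of 8 shuttling and extraction factors, 3 were highest in replicate 4. The 3 of highest mean CPM peaked elsewhere: Nploc4 and the shuttle receptor Ubqln1 in replicate 1, at 259 and 198 CPM, and the shuttle receptor Rad23b in replicate 7, at 218 CPM. Rad23b was counted in all 7 embryos. Of the genes named among these factors, 0 passed the edgeR dispersion test, which called 0 of all 11810 genes.

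Regulators of subunit transcription formed a list of 7 genes. Nfe2l1, the factor that raises subunit transcription when the proteasome is inhibited, was counted in all 7 embryos, at 182, 57.4, 1.38, 67.7, 30.7, 43.0 and 122 CPM. It was thus highest in replicate 1 and lowest in replicate 3. The NF-Y subunits Nfyc and Nfya were highest in different embryos, Nfyc in replicate 4 (193 CPM, beside 187 CPM in replicate 2) and Nfya in replicate 2 (99.8 CPM, beside 3.86 CPM in replicate 4). Of the 6 regulators tested, 2 were highest in replicate 4: Nfyc and Nfe2l2, the latter named after its values were seen. Of the 6, 0 passed the edgeR dispersion test, which called 0 of all 11810 genes.

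Some counts may be shared with other genes. Exons of 8 members (Psma4, Psma5, Psmb5, Psmb7, Psmc3, Psmd1, Psmd3 and Psmd13) overlap another annotated gene, and whether counting used strand is not known from the sources used here. The partner of Psmb7, Nek6, was counted in replicate 4 alone (2775 counts). The partner of Psmd1, Htr2b, had 251 counts in replicate 4 and 0 in replicate 3. GENCODE M21 also lists 4 pseudogenes named after Psmb5, Psmb6 or Psmb7, which were not analysed here, so values of these 3 genes are uncertain.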

How the data were processed

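Single morulae were profiled by RNA-seq in 1 group of 7. The deposited whole-number counts per gene come from the authors, and the submitters' processing notes name HISAT2 2.0.5, featureCounts 1.5.0-p2, Subread and GRCm38. The deposited log2 table holds the authors' normalized values, which take the same set of values in every column, and the same notes name limma. For the annotation, strand setting and order of tools: not given in the sources used here. Columns numbered 1 to 7 were matched to samples by the number in their titles.

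From the counts, CPM used the library total, and log2 CPM used edgeR 4.0.16 with TMM and a prior count of 2. Of 26586 symbols, 11810 had a mean CPM of 1 or more and entered edgeR's dispersion test with Benjamini-Hochberg adjustment at 0.05. TPM was computed over the 22468 symbols that match GENCODE M21, by exon length. Intervals are 95% Poisson or Clopper-Pearson, a count of 0 was limited at 3 counts, and both cover counting error only. Total counts differed 237-fold between libraries. The edgeR dispersion test was also run on simulated counts, with an outcome not reported here. Tools were R 4.3.3, limma 3.58.1, DESeq2 1.42.0 and Python 3.11.15.

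Members and lists were chosen with earlier results of these data known. Full values follow a rule: catalytic subunits, Psmd4, Psmd14, the 3 highest and 3 lowest mean CPM, the 2 smallest and 2 largest SDs, and members counted in all or at most 2 embryos. Other lists name up to 3 genes of highest mean CPM (some listed genes are not reported here), and other members given in full were chosen after their values were seen. The promoter search (7 motifs), the 623-gene background, transcript length and the omission of replicates 3 and 6 together were also chosen after seeing the data. Other alternatives were DESeq2 size factors, the deposited log2 table, no filter, denominators without ribosomal RNA genes and Lars2, thinning and leaving out each embryo.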

Additional observations from a re-analysis of the deposited data

How the results depend on the processing

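With single embryos left out, the log2 ratio of regulatory to core counts (-0.09) ran from -0.36 without replicate 5 to 0.17 without replicate 1. It was 0.07 without replicate 2, so its sign depended on single embryos. By other measures it was -0.71 as a difference of median log2 CPM and -0.67 per exon length. As a difference of mean log2 CPM it was -0.13, and from the deposited log2 table -0.06. The number of members highest in 1 embryo (29) ran from 13 without replicate 4, when replicate 2 was the highest for most, to 31 without replicate 5. The mean summed CPM (5484) was 2607 without replicate 4, 7343 without replicates 3 and 6, and 6913 or 7318 with TMM or DESeq2 scaling. Of 217 pairs of member and embryo, 134 had a count, 126 had at least 3 counts and 114 had a count after thinning. The edgeR dispersion test called 0 genes in all 7 fits that left out an embryo (8 to 115 genes at an unadjusted p under 0.05; 115 of 11905 genes and 5 of 31 members without replicate 5, and 0 members in the other fits). No paired analysis was possible because the 7 embryos form 1 group. Depth limits replicate 6 most, where 3 counts equal 21.5 CPM.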
